A study of Homo sapiens with 8 samples.

Results

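The 48 genes described here code for the cyclins, kinases and other machinery that carry a cell into and through mitosis. They were taken from a list of gene symbols and matched to the gene identifiers of the deposited table, where all 48 were found among 38010 identifiers. Their expression was compared between 2 lines, by bulk RNA-seq. The Rho0 line is the Ea.hy926 derivative that its labels call OXPHOS-deficient, and its reference is parental Ea.hy926, an established human line made by fusing umbilical vein endothelial cells with the A549 lung carcinoma line. Each line was grown to confluence and sampled as 4 biological replicates. Rho0 cells are cells that have lost their mitochondrial DNA, and the making of this line was not stated in the sources used here. Each condition is therefore represented by 1 cell line, and the p-values measure the spread between cultures of those lines.

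Mitosis is driven by the cyclin-dependent kinase CDK1, which is switched on by cyclins A and B and by CDC25 phosphatases. The spindle assembly checkpoint holds the anaphase-promoting complex (APC/C) inactive until every kinetochore is attached to microtubules, after which securin and cyclin B are destroyed and separase opens the cohesin rings. Many of these genes are transcribed in a peak late in the cell cycle through a shared promoter architecture, in which the MuvB complex binds a cell cycle genes homology region (CHR) and NF-Y binds CCAAT boxes. Confluent endothelial cells are known to be largely quiescent, with low mitotic gene expression. Whether this holds for lines derived in part from a carcinoma line, as here, was not tested.

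The promoters of 5 members are shown, from the members that hold the CHR letters and whose levels are given in every library below. Of these members, the 5 with the largest changes between the lines were taken. Members with smaller changes hold the CHR letters too, such as NDC80, TOP2A and SMC4. Each runs from 120 bases before the RefSeq gene start to 30 bases after it, 5′ to 3′ on the gene's strand, in RefSeq's GRCh38.p14. Capitals mark TTTGAA (the CHR) and CCAAT (the NF-Y box) on either strand, so that ATTGG is a CCAAT box read from the other strand.
CCNB2 (chr15:59105026-59105175, plus strand): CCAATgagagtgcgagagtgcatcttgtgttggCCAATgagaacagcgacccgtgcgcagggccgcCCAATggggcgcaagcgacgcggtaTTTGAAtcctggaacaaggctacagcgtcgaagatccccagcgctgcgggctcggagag
MAD2L1 (chr4:120066819-120066968, minus strand): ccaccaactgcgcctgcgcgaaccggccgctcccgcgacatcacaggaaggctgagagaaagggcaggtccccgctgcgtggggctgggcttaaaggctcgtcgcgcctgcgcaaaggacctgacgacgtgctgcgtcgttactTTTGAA
PLK1 (chr16:23678769-23678918, plus strand): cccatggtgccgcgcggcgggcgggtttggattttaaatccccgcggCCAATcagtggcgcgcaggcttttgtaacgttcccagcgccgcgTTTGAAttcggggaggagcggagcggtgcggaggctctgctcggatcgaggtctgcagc
CDC20 (chr1:43358861-43359010, plus strand): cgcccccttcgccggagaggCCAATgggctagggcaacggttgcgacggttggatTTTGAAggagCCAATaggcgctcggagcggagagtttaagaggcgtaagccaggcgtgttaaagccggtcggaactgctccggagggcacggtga
MKI67 (chr10:128126394-128126543, minus strand): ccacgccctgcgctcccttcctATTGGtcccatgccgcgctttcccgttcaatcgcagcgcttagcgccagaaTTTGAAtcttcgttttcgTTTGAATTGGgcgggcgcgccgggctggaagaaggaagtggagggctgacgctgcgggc
In CCNB2, cyclin B2, 3 CCAAT boxes begin at positions -120, -87 and -54 and the CHR at -29, counted from the gene start. In MKI67 a CHR and an inverted CCAAT box overlap in a single run of capitals. In MAD2L1 the CHR match lies downstream of the start, at positions 25 to 30, with no CCAAT box in the stretch printed.

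A RefSeq window of 250 bases before to 50 bases after the start was held for 40 of the 48 members, in 52 windows. TTTGAA, searched on both strands, was in at least 1 window of 28 of these 40 genes (70%), and in 18.2% of all 27305 genes with a window. CCAAT was in 30 of the 40 (75%), and in 39.7% of all genes. Both were in 21 (52.5%), and in 8.37% of all genes. A TTTGAA within the 100 bases upstream of the start was in 18 members (45%), and in 5.76% of all genes. Of the 40 TTTGAA matches in the members' windows, 20 began between positions -40 and -1, and of 68 CCAAT matches, 42 began between -120 and -50. A gene with several overlapping windows counts a match once for each. The kinesin genes CENPE and KIF2C and the transcription factor gene MYBL2 held neither motif in these windows.

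**Figure D1:**
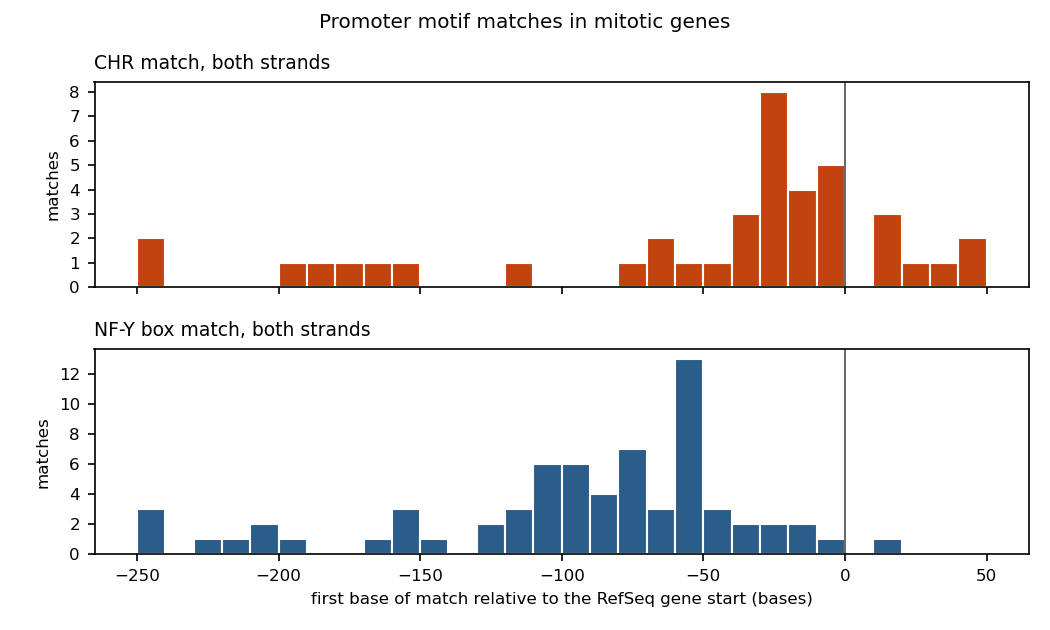
Number of motif matches (vertical axes) by the position of the first base of the match relative to the RefSeq gene start (horizontal axis, bases) in the 52 windows of 40 mitotic genes. The 40 CHR matches gather just upstream of the start, 20 of them between -40 and -1, and the 68 NF-Y box matches lie farther upstream, 42 of them between -120 and -50.

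The 8 libraries held 11721708 to 37203507 estimated counts in Rho0 and 23366190 to 28599386 in parental. Mitochondrially encoded genes took 0.00296% to 0.149% of the counts in Rho0 libraries and 16% to 21.4% in parental libraries, so every library matched its label. Levels below are CPM, each count relative to its library's total after TMM scaling, in which 1 count is worth 0.0225 to 0.0753 CPM in Rho0 and 0.0398 to 0.0516 CPM in parental. Differences are log2 fold changes, Rho0 over parental, from edgeR's quasi-likelihood test with Benjamini-Hochberg adjustment over 15184 genes, called at an adjusted p of 0.05. Of 10 endothelial marker genes 9 were tested, and their summed level was 4985 to 5304 CPM in Rho0 and 4869 to 5230 CPM in parental. Single endothelial markers moved both ways under that sum, with 4 higher and 3 lower. KDR was at 131 ± 13.5 CPM in Rho0 and 13.8 ± 0.794 CPM in parental (SD, n = 4 each), a log2 fold change of 3.24, PECAM1 changed by 0.96 and CDH5 by -0.73, examples chosen after their values were seen. Of 7 epithelial markers 6 were tested, and their summed level was 1296 to 2081 CPM in Rho0 and 2610 to 2883 CPM in parental. The keratins KRT8 (-1.21) and KRT18 (-0.89) and CLDN4 (-0.80) were lower, EPCAM was higher (1.13) averaging under 1 CPM in each line, and KRT7 and CDH1 were not called. The part of these differences in the results on mitotic genes was not tested. CLDN5 and KRT19 were too low to test.

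All 48 mitotic genes passed the filter on low counts, and 36 of them (75%) were lower in Rho0. Across all genes tested, 25.4% were lower and 29% higher. SMC4, a condensin subunit, was the 1 member called higher, and 11 were not called. The median log2 fold change was -0.74 over the members, which is 1.67-fold higher expression in parental, beside 0.05 over all genes tested. The 36 lower genes changed by -23.1% to -76.5%, and 13 of the 48 had a log2 fold change of -1 or less, which 5.51% of all genes did. In 34 members every Rho0 library was below every parental library, a pattern of 24.3% of all genes, and in 14 the lines overlapped. Summed over the 48 genes, with most weight on the abundant ones, the level was 2118, 2126, 2153 and 2385 CPM in the Rho0 libraries, against 3602, 3636, 3877 and 3634 CPM in the parental libraries. All Rho0 sums lay below the lowest parental sum, and that of Rho0 replicate 4 stood above the other Rho0 sums. In bulk RNA, fewer cells in mitosis and less of these mRNAs in each cell cannot be told apart.

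The size of the fall depended on how libraries were scaled. When CPM were scaled by library size alone, where the mitochondrial transcripts of the parental cells count toward the total, the median of all genes moved to 0.44 and that of the members to -0.35. Measured from the median of all genes, the members' median was -0.79 under both scalings. A change of scaling moves all genes by nearly the same amount, so this agreement was fixed in advance and is no support. Scaled by library size alone, 24 members were called lower (10.1% of all genes) and 4 higher (56.5% of all genes), with 1540 genes lower and 8583 higher in all, against 3858 lower and 4399 higher with TMM. The 4 called higher were SMC4, SMC2, ECT2 and BUB3. The 12 that lost their call were CCNB1, CDCA3, CDK1, CDC25B, BUB1B, PTTG1, CENPA, KIF11, KIF4A, NUSAP1, NCAPG and MKI67.

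**Figure D2:**
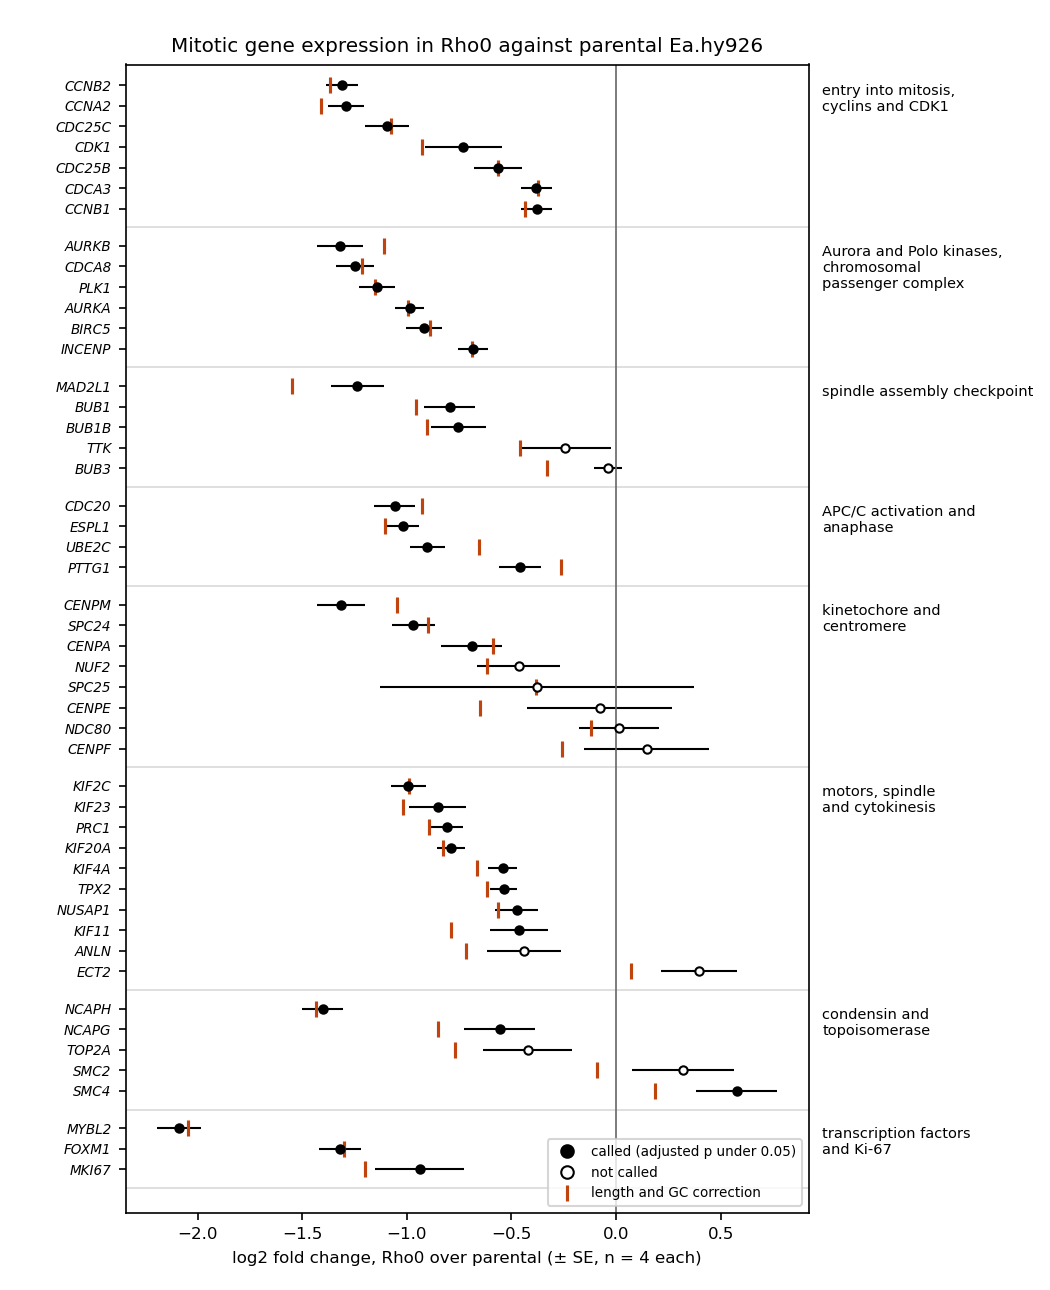
Log2 fold change, Rho0 over parental, of the 48 genes in 8 role groups (points, with bars of ± 1 SE, n = 4 libraries per line). Filled points are called at an adjusted p under 0.05, open points are not, and ticks give the value once library trends with transcript length and GC are removed. MYBL2 lies farthest left at -2.09, SMC4 is the filled point right of zero at 0.58, and 5 of the 11 open points are kinetochore and centromere genes.

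All 7 genes of entry into mitosis were lower in Rho0 with TMM scaling (25.4% of all genes). They are the cyclins CCNA2, CCNB1 and CCNB2, CDK1, its activating phosphatases CDC25B and CDC25C, and CDCA3, which promotes mitotic entry. CCNB2 (chr15:59105078-59125045, plus strand in GENCODE 29, GRCh38) was at 21.5, 19.4, 21.2 and 21.1 CPM in Rho0 replicates 1 to 4, against 47.6, 50.9, 56.5 and 51.6 CPM in parental replicates 1 to 4. CCNB1 (chr5:69167010-69178245, plus strand), the main mitotic cyclin B, was at 33.6, 34.5, 31.6 and 34.1 CPM in Rho0, against 39.8, 43.2, 43.2 and 47.8 CPM in parental. Both cyclins were lower in every Rho0 library, with a wide gap for CCNB2 and a narrow one for CCNB1. CCNB2 changed by -1.31 ± 0.076 (log2, SE; edgeR adjusted p 2.0e-07) and CCNB1 by -0.38 ± 0.075 (edgeR adjusted p 0.0015). CCNA2, cyclin A2, averaged 17.5 ± 1.76 CPM in Rho0 and 43 ± 1.52 CPM in parental (SD, n = 4 each), a log2 fold change of -1.29. The smallest falls of the group, CCNB1 and CDCA3, turned to 0.01 each with scaling by library size alone.

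CDK1 (chr10:60778331-60794852, plus strand) was at 9.37, 8.51, 10.6 and 15.7 CPM in Rho0, against 19.6, 18.6, 15 and 20.9 CPM in parental. Its lines overlapped, since Rho0 replicate 4 lay above parental replicate 3, and it changed by -0.73 ± 0.18 (edgeR adjusted p 0.0062). Scaled by library size alone CDK1 was no longer called, at -0.34 (edgeR adjusted p 0.18, the highest over 19 alternatives). CDC25B and CDC25C had log2 fold changes of -0.56 and -1.10.

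The cyclins did not fall equally. Within each library the log2 ratio of CCNB2 to CCNB1 was -0.65, -0.83, -0.57 and -0.69 in Rho0, against 0.26, 0.24, 0.39 and 0.11 in parental. The ratio was negative in every Rho0 library and positive in every parental one, a difference of -0.93 (exact two-sided permutation p = 0.0286, and 4 against 4 libraries allow none smaller). The CCNA2 to CCNB1 ratio differed by -0.92 with the same exact p. Such ratios do not depend on how libraries are scaled. In all, 7 ratios were computed, on pairs chosen after their values were seen, and each had this p, before and after Benjamini-Hochberg adjustment over the 7, so the p-values are no independent support.

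All 6 Aurora, Polo and chromosomal passenger genes were lower in Rho0 (25.4% of all genes). They stayed lower when scaled by library size alone (10.1% of all genes). PLK1 (chr16:23677656-23690367, plus strand), the Polo-like kinase of centrosome maturation and mitotic entry, was at 89.8, 87.6, 79.1 and 71.4 CPM in Rho0, against 182, 178, 195 and 168 CPM in parental. AURKA (chr20:56369389-56392337, minus strand), the kinase of spindle poles, was at 26.6, 24.9, 27.9 and 28.3 CPM in Rho0, against 52.5, 52.3, 56.4 and 52.6 CPM in parental. AURKB (chr17:8204733-8210600, minus strand), the kinase of the chromosomal passenger complex that corrects faulty attachments, was at 32.1, 26.7, 25.4 and 22.5 CPM in Rho0, against 66.7, 61.2, 73.4 and 64.7 CPM in parental. None of the 3 kinases overlapped between the lines, and parental replicate 3 was the highest library for each. PLK1 changed by -1.14 ± 0.087, AURKA by -0.99 ± 0.070 and AURKB by -1.32 ± 0.11 (log2, SE; edgeR adjusted p 1.7e-06, 9.0e-07 and 3.4e-06).

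The other passenger subunits were the scaffold INCENP at a log2 fold change of -0.68, survivin (BIRC5) at -0.92 and borealin (CDCA8) at -1.25. INCENP averaged 61.9 ± 0.795 CPM in Rho0 and 99.4 ± 7.49 CPM in parental (SD, n = 4 each). The log2 ratio of AURKB to INCENP, a pair chosen after its values were seen, differed between the lines by -0.65, with no overlap between libraries. The difference of their fitted changes was -0.42 after the length and GC correction described below.

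Of the 5 spindle assembly checkpoint genes, 3 were lower (60%, against 25.4% of all genes). MAD2L1 (chr4:120055608-120067074, minus strand), the MAD2 protein that sequesters CDC20, was at 6.71, 8.36, 7.55 and 9.87 CPM in Rho0, against 20.4, 18, 17.3 and 20.9 CPM in parental. BUB1 (chr2:110637698-110678114, minus strand), a kinetochore kinase, was at 19.8, 26.1, 25.9 and 31 CPM in Rho0, against 45.5, 46.1, 40.7 and 46.4 CPM in parental. Neither overlapped between the lines, and the gap was wide for MAD2L1. MAD2L1 changed by -1.24 ± 0.13 (edgeR adjusted p 1.7e-05) and BUB1 by -0.80 ± 0.12 (edgeR adjusted p 2.8e-04). BUB1B, which codes for the checkpoint protein BubR1, had a log2 fold change of -0.75.

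BUB3, which carries BUB1 and BubR1 to kinetochores, and TTK were not called. BUB3 averaged 90.0 ± 3.82 CPM in Rho0 and 92.6 ± 4.76 CPM in parental (SD, n = 4 each), a log2 fold change of -0.04 ± 0.067 that turned to 0.35 when scaled by library size alone and to -0.33 with the length and GC correction, called in both. TTK (chr6:80003887-80042527, plus strand), the MPS1 kinase at the head of the checkpoint, was at 6.0, 6.48, 8.49 and 12.9 CPM in Rho0, against 10.0, 10.7, 8.92 and 11.1 CPM in parental. Replicates 1 to 3 of Rho0 were below every parental library and replicate 4 was above them all. TTK had a log2 fold change of -0.24 ± 0.22 (edgeR adjusted p 0.37), and of -0.55 without Rho0 replicate 4, where it was called. The MAD2L1 to BUB3 log2 ratio was -3.67, -3.44, -3.57 and -3.26 in Rho0, against -2.20, -2.38, -2.31 and -2.21 in parental. The difference was -1.21, for a pair chosen after its values were seen.

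All 4 genes of APC/C activation and anaphase were lower in Rho0 (25.4% of all genes). CDC20 (chr1:43358955-43363203, plus strand), the APC/C activator on which the checkpoint acts, was at 68.7, 62.9, 58.5 and 51.7 CPM in Rho0, against 119, 120.2, 142 and 122 CPM in parental. The lines were well apart, and parental replicate 3 was the highest library. CDC20 changed by -1.06 ± 0.10 (edgeR adjusted p 7.3e-06). UBE2C, the ubiquitin-conjugating enzyme of the APC/C, changed by -0.90, and its named pseudogene copies held at most 7.03% of its count. Separase (ESPL1) changed by -1.02 and its inhibitor securin (PTTG1) by -0.46, at 27.6 ± 3.54 CPM in Rho0 and 38.1 ± 2.74 CPM in parental (SD, n = 4 each).

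The kinetochore and centromere group was mixed, with 3 of 8 genes lower (37.5%, against 25.4% of all genes) and 5 not called. CENPM (chr22:41938721-41947164, minus strand), a subunit of the constitutive centromere network, was at 6.37, 4.6, 4.89 and 5.5 CPM in Rho0, against 14.1, 12.5, 13.3 and 13.9 CPM in parental. CENPA (chr2:26764289-26801067, plus strand), the histone H3 variant of centromeres, was at 5.08, 5.2, 3.65 and 5.97 CPM in Rho0, against 8.03, 8.43, 7.27 and 8.51 CPM in parental. Both were lower in each Rho0 library than in any parental library, with log2 fold changes of -1.31 ± 0.11 for CENPM (edgeR adjusted p 4.3e-06) and -0.69 ± 0.15 for CENPA (edgeR adjusted p 0.0023). The 4 subunits of the NDC80 complex, the microtubule receptor of the kinetochore, differed among themselves. NDC80 (chr18:2571511-2616635, plus strand) was at 5.78, 7.84, 7.5 and 11.2 CPM in Rho0, against 8.03, 8.03, 6.75 and 9.35 CPM in parental, so that the Rho0 libraries lay on both sides of the parental ones. NDC80 had a log2 fold change of 0.015 ± 0.19 (edgeR adjusted p 0.96). SPC24 was lower at -0.97, and NUF2 was not called at -0.47 ± 0.20 (edgeR adjusted p 0.069), and was called at -0.67 without Rho0 replicate 4. SPC25 could not be read, at 0 counts in Rho0 replicate 2 and 0.05 CPM in parental replicate 3 but 1.30 to 3.67 CPM in the other 6 libraries.

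The log2 ratio of SPC24 to NDC80 was 1.58, 0.93, 0.70 and 0.37 in Rho0, against 1.83, 1.80, 2.15 and 1.64 in parental. The lines did not overlap, with a difference of -0.96, or -0.78 between the fitted changes after the length and GC correction. This pair too was chosen after its values were seen. Exons of 13 members share bases with another gene. The library kit was strand-specific, while the strand setting of the counting was not stated in the sources used here. CENPE, the kinetochore kinesin, and CENPF, a large outer kinetochore protein, were not called at -0.08 ± 0.35 and 0.15 ± 0.30. CENPF averaged 53.2 ± 27.3 CPM in Rho0 and 48.3 ± 9.48 CPM in parental (SD, n = 4 each).

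Of 10 motor, spindle and cytokinesis genes, 8 were lower (80%, against 25.4% of all genes). KIF2C (chr1:44739818-44767767, plus strand), a microtubule depolymerase, was at 34.4, 27.8, 29 and 32.5 CPM in Rho0, against 59.9, 59, 63.7 and 64.3 CPM in parental. KIF11 (chr10:92593286-92655395, plus strand), the kinesin that pushes spindle poles apart, was at 21.4, 24.6, 25.1 and 35.9 CPM in Rho0, against 38.1, 36.8, 36 and 37.4 CPM in parental. KIF2C stood far below in every Rho0 library, whereas Rho0 replicate 4 was just under the lowest parental library for KIF11. KIF2C changed by -0.99 ± 0.082 (edgeR adjusted p 3.2e-06) and KIF11 by -0.46 ± 0.14 (edgeR adjusted p 0.016). The central spindle genes KIF23, PRC1, KIF20A and KIF4A changed by -0.85, -0.81, -0.79 and -0.54. TPX2, which activates Aurora A on spindle microtubules, changed by -0.54 and NUSAP1, a microtubule bundling protein, by -0.47. The cytokinesis genes ANLN, anillin, and ECT2, the exchange factor for RhoA, were not called, at -0.44 ± 0.18 and 0.40 ± 0.18 (edgeR adjusted p 0.055 and 0.09). Without Rho0 replicate 4 ANLN was called, at -0.68, and without Rho0 replicate 1 ECT2 was called, at 0.52.

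The condensin and topoisomerase group held both directions. NCAPH (chr2:96335787-96373845, plus strand), the kleisin subunit of condensin I, was at 13.7, 12.9, 13.3 and 16.6 CPM in Rho0, against 36.7, 34.4, 40.8 and 38.2 CPM in parental. SMC4 (chr3:160399274-160434962, plus strand), an ATPase subunit shared by both condensins, was at 65.6, 85.3, 88.4 and 139 CPM in Rho0, against 63.1, 66, 53.9 and 70.7 CPM in parental. NCAPH was lower in every Rho0 library, and SMC4 was above every parental library in Rho0 replicates 2, 3 and 4 but within their range in replicate 1. NCAPH changed by -1.40 ± 0.10 (edgeR adjusted p 8.3e-07) and SMC4 by 0.58 ± 0.19 (edgeR adjusted p 0.027). The SMC4 call was lost without parental replicate 1, 2 or 3, at 0.57, 0.59 and 0.50, and it fell to 0.19 with the length and GC correction (edgeR adjusted p 0.098, the highest over 19 alternatives). Without Rho0 replicate 4 it was called at 0.32. The exons of SMC4 share 607 bases with IFT80 and 1561 bases with TRIM59, both on the other strand. IFT80 averaged 37.3 CPM in Rho0 and 17.1 CPM in parental. TRIM59 went the other way, at 5.80 CPM in Rho0 and 8.69 CPM in parental. The part of these overlaps in the SMC4 counts was not tested.

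The NCAPH to SMC4 log2 ratio was -2.26, -2.73, -2.73 and -3.07 in Rho0, against -0.78, -0.94, -0.40 and -0.89 in parental. The difference of -1.94 was the largest in size of the 7 ratios, whose pairs were chosen after their values were seen. That between the fitted changes was -1.62 with the length and GC correction. NCAPG, another condensin I subunit, was lower at -0.56, and SMC2, the partner of SMC4, was not called at 0.32 ± 0.24. TOP2A (chr17:40388516-40417950, minus strand), the topoisomerase that untangles sister chromatids, was at 48.2, 53.5, 61.3 and 105 CPM in Rho0, against 91.2, 95.2, 75.9 and 97.4 CPM in parental. Replicates 1 to 3 of Rho0 were below all parental libraries and replicate 4 above them, so TOP2A was not called at -0.42 ± 0.21 (edgeR adjusted p 0.12). Without Rho0 replicate 4 it was called, at -0.74.

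All 3 genes of the group of transcription factors and Ki-67 were lower (25.4% of all genes), with a median log2 fold change of -1.32. MYBL2 (chr20:43667019-43716496, plus strand), the B-MYB protein that joins MuvB as cells replicate their DNA, was at 62.3, 58, 53.5 and 47.7 CPM in Rho0, against 221, 224, 274 and 224 CPM in parental. FOXM1 (chr12:2857681-2877155, minus strand), the forkhead factor that MuvB and B-MYB recruit, was at 96.5, 94.6, 90.5 and 80.4 CPM in Rho0, against 213, 213, 269 and 208 CPM in parental. Both were far lower in every Rho0 library, and parental replicate 3 was the highest for each. MYBL2 changed by -2.09 ± 0.10, the largest change of the 48 genes and 4.26-fold higher in parental (edgeR adjusted p 6.8e-08), and FOXM1 by -1.32 ± 0.10 (edgeR adjusted p 1.5e-06). MYBL2 fell further than FOXM1, with a log2 ratio within libraries of -0.63, -0.70, -0.76 and -0.75 in Rho0, against 0.06, 0.07, 0.02 and 0.10 in parental. The difference was -0.78, again for a pair chosen after its values were seen.

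MKI67 (chr10:128096659-128126385, minus strand) codes for Ki-67, the chromosome surface protein used as a marker of proliferating cells. It was at 84.5, 117, 134 and 203 CPM in Rho0, against 247, 261, 285 and 241 CPM in parental. The lines did not overlap, but the Rho0 libraries were widely spread, with replicate 4 the highest. MKI67 changed by -0.94 ± 0.21 (edgeR adjusted p 0.0035). Scaled by library size alone it was no longer called, at -0.53 (edgeR adjusted p 0.059, the highest over 19 alternatives).

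**Figure D3:**
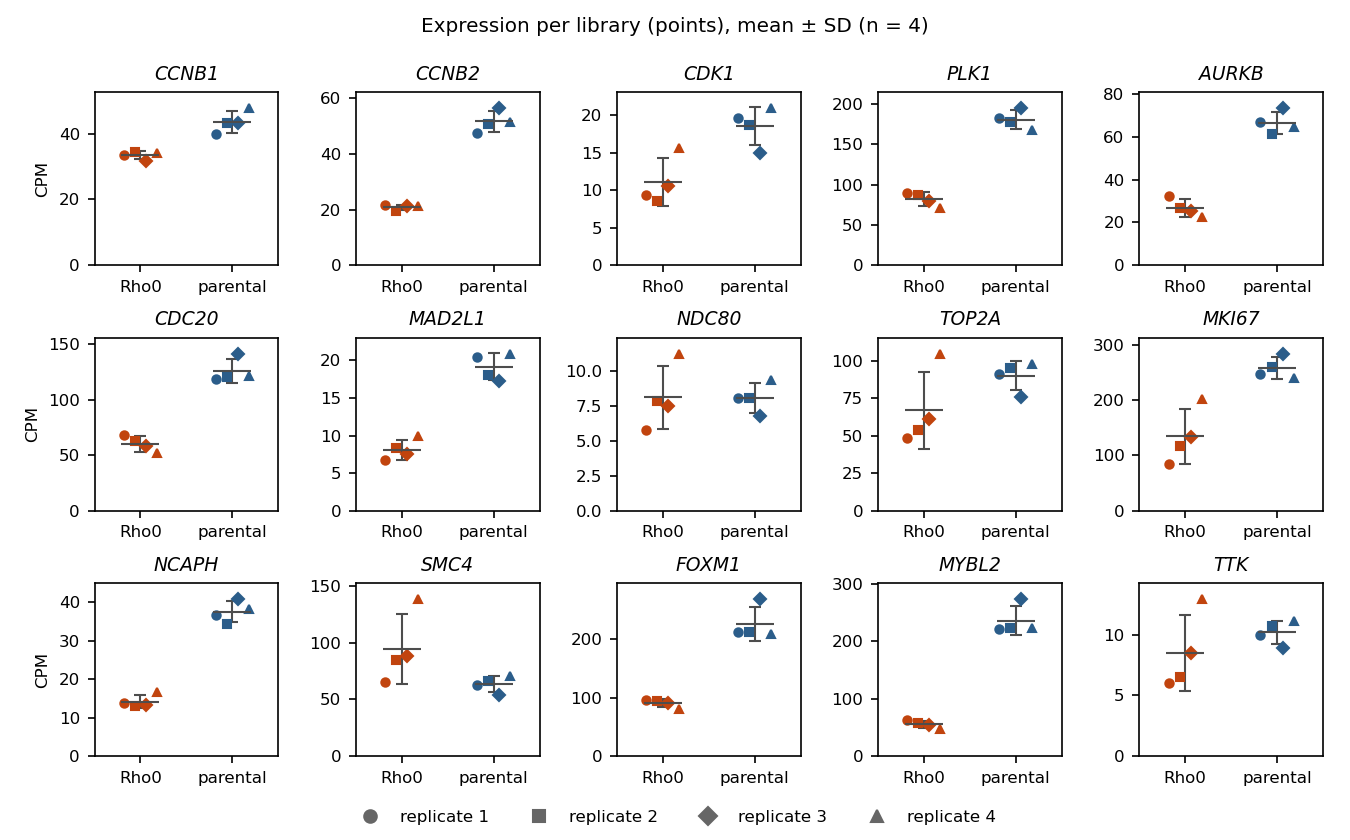
Expression of 15 mitotic genes in CPM (vertical axes, from 0) in each library, with Rho0 left and parental right in every panel. Points are libraries, marked by replicate number, and bars are the mean ± SD of 4. MYBL2 and CCNB2 separate cleanly (47.7 to 62.3 CPM in Rho0 against 221 to 274 CPM in parental for MYBL2), whereas replicate 4 of Rho0 (triangle) rises above all parental points for SMC4, TOP2A, NDC80 and TTK.

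Rho0 replicate 4 was the highest of the Rho0 libraries for 28 of the 48 genes and the lowest for 12. Its deviation from the mean of the other 3 Rho0 libraries followed the GC content of each gene's longest GENCODE transcript, with a Spearman correlation of -0.85 across the 48 genes, and 0.43 with transcript length. The same measure gave 0.77, 0.51 and -0.30 for Rho0 replicates 1 to 3, and -0.26, -0.61, 0.84 and -0.80 for parental replicates 1 to 4, so libraries of both lines deviated with GC in either direction. These correlations are across genes measured in the same libraries and are descriptions. The log2 fold change between the lines was also related to GC across the 48 genes, at a Spearman correlation of -0.64. The 11 members not called had GC contents up to 41.4%, and all 32 members above that were lower in Rho0. Of the 16 members under 42%, a boundary chosen after the values were seen, 4 were lower, 1 was higher and 11 were not called. Across all genes tested, of any GC content, 25.4% were lower and 29% higher. MAD2L1, at 39.4% GC and a log2 fold change of -1.24, stood apart from its neighbours in GC.

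A length and GC correction, fitted as a smooth trend in every library and chosen after seeing the data, left 42 members lower and none higher, with a median of -0.84. Under it 34.2% of all genes were lower and 27.9% higher, and the median of all genes was -0.04. Among the 16 genes under 42% GC, 10 were then lower. TOP2A was called at -0.77, TTK at -0.46 and CENPE at -0.65, while NDC80 and CENPF were at -0.12 and -0.26 without a call. The correlation of the fold change with GC was then -0.42. The correction also removes any trend with length or GC that a whole line shares, so its values and the uncorrected ones are given side by side. The part of GC content in the differences between members was not tested.

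**Figure D4:**
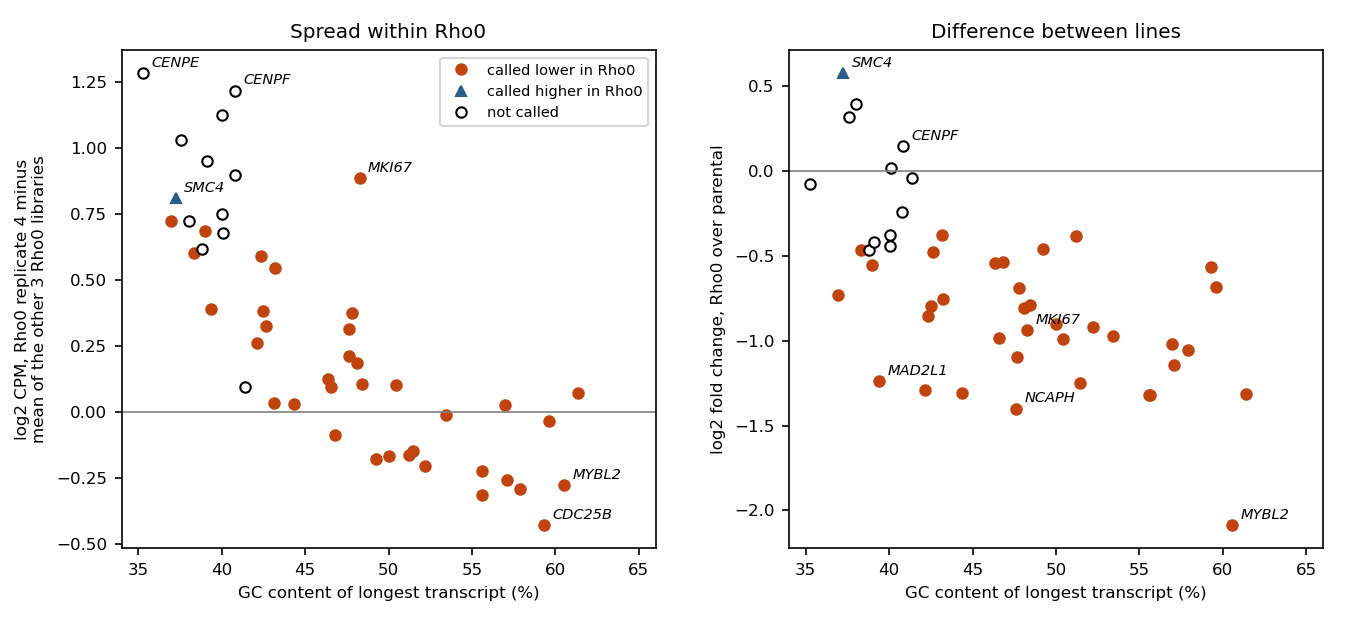
GC content of the longest transcript (horizontal axes, %) of the 48 genes against the log2 CPM of Rho0 replicate 4 minus the mean of the other 3 Rho0 libraries (left), and against the log2 fold change, Rho0 over parental (right). Each point is a gene. Low-GC genes such as CENPE and SMC4 were higher in Rho0 replicate 4 and high-GC genes such as CDC25B were lower (Spearman -0.85), and open points, genes not called, all lie at 41.4% GC or less.

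The motifs described at the start were set against these changes. Of the 28 members with a TTTGAA in their window 19 were lower in Rho0, the median change of the 28 being -0.62 on the log2 scale, and of the 12 without it 11 were lower, with a median of -0.88. Of the 30 with a CCAAT box 26 were lower, with a median of -0.79, and of the 10 without it 4 were lower, with a median of -0.45. These counts are descriptions of the 40 genes with a window, and 25.4% of all genes tested were lower. Every member that was not called lower, with either motif or without, had a GC content of 41.4% or less. The part of GC content in these motif counts was not tested. MYBL2, with the largest change, held neither motif there, and FOXM1 had no window.

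Genes that act beside the members were read from 5 further lists. Of 68 other mitotic genes, 67 were tested, with a median log2 fold change of -0.53. Of these, 40 were lower (59.7%, against 25.4% of all genes) and 5 higher (29% of all genes). Library size alone gave 25 lower (10.1% of all genes), 8 higher (56.5% of all genes) and a median of -0.13, beside 0.44 for all genes. FAM83D, a spindle protein, averaged 30.7 ± 2.55 CPM in Rho0 and 78.9 ± 3.07 CPM in parental (SD, n = 4 each), a log2 fold change of -1.37, and the mitotic kinase PBK changed by -1.37. SPDL1, the adaptor that brings dynein to kinetochores, was higher at 19 ± 4.63 CPM in Rho0 and 8.76 ± 1.21 CPM in parental (SD, n = 4 each), a log2 fold change of 1.118 (edgeR adjusted p 2.7e-04) and 0.95 with the length and GC correction. SGO2, a guardian of centromeric cohesin, was higher at 0.72, but at 0.29 and not called with that correction. Its call was also lost without Rho0 replicate 3 (0.71) or 4 (0.36) and without parental replicate 1, 2, 3 or 4 (0.71, 0.78, 0.58 and 0.81). Of the 17 APC/C subunits and inhibitors 6 were lower (35.3%, against 25.4% of all genes) and none higher (29% of all genes), with a median of -0.16. Among the lower ones were CDC26 at -1.10 and ANAPC1 at -0.65 (-0.25 with library size alone, where its call was lost). With library size alone the median of these 17 was 0.24, below the 0.44 of all genes. Under that scaling 1 was lower and 8 were higher (10.1% and 56.5% of all genes).

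DNA replication genes were mostly lower in Rho0. Of 35 origin and fork genes, 33 were lower (94.3%, against 25.4% of all genes) and 1 higher (29% of all genes). Their median log2 fold change was -0.84. Library size alone gave 25 lower (10.1% of all genes), 1 higher (56.5% of all genes) and a median of -0.44, beside 0.44 for all genes. MCM7, a subunit of the replicative helicase, averaged 84.3 ± 7.43 CPM in Rho0 and 250.3 ± 13.6 CPM in parental (SD, n = 4 each), a log2 fold change of -1.57, and CDT1, which loads that helicase, changed by -1.39. CDC7, the kinase that fires origins, was the gene called higher, at 0.56, or 0.33 with the length and GC correction. Summed over the list, the level was 1153 to 1293 CPM in Rho0 and 2293 to 2488 CPM in parental.

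Of 15 G1 cyclins, CDKs and CDK inhibitors, 11 were tested, 5 were lower (45.5%, against 25.4% of all genes) and 1 higher, where 29% of all genes were higher. Their median log2 fold change was -0.24, and 0.15 with scaling by library size alone, below the 0.44 of all genes. Under that scaling 2 were lower and 4 higher (10.1% and 56.5% of all genes). CDK2 was lower at -0.75 and CDKN2C, the p18 inhibitor, at -0.84. CDKN1B, the p27 inhibitor of cyclin-dependent kinases, was higher in every Rho0 library, averaging 28.6 ± 0.695 CPM in Rho0 and 20.2 ± 0.722 CPM in parental (SD, n = 4 each). That is 1.42-fold, a log2 fold change of 0.50 ± 0.067 (edgeR adjusted p 1.1e-04). CDKN1A, the p21 inhibitor, was not called at 0.12 ± 0.089, and neither was CCND1, cyclin D1, at 0.02 ± 0.072. With library size alone both were called higher, at 0.51 and 0.42, and CDKN1A was called at 0.21 with the length and GC correction and at 0.18 without Rho0 replicate 4. CDKN1C held at most 2 counts in any library and was not tested. Of 18 RB, E2F and DREAM genes 7 were lower (38.9%, against 25.4% of all genes) and 3 higher (29% of all genes), with a median of -0.11. With library size alone their median was 0.29, also below the 0.44 of all genes. That scaling gave 4 lower and 8 higher (10.1% and 56.5% of all genes). E2F1 and E2F2, activating E2F factors, were lower at -1.002 and -1.031, and TFDP2, an E2F partner, was higher at 0.75. LIN54, the MuvB subunit that binds the CHR, was called higher at 0.49 (edgeR adjusted p 0.02) but was not called with the length and GC correction, at 0.15, or without parental replicate 3, at 0.46, and was called at 0.31 without Rho0 replicate 4.

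**Figure D5:**
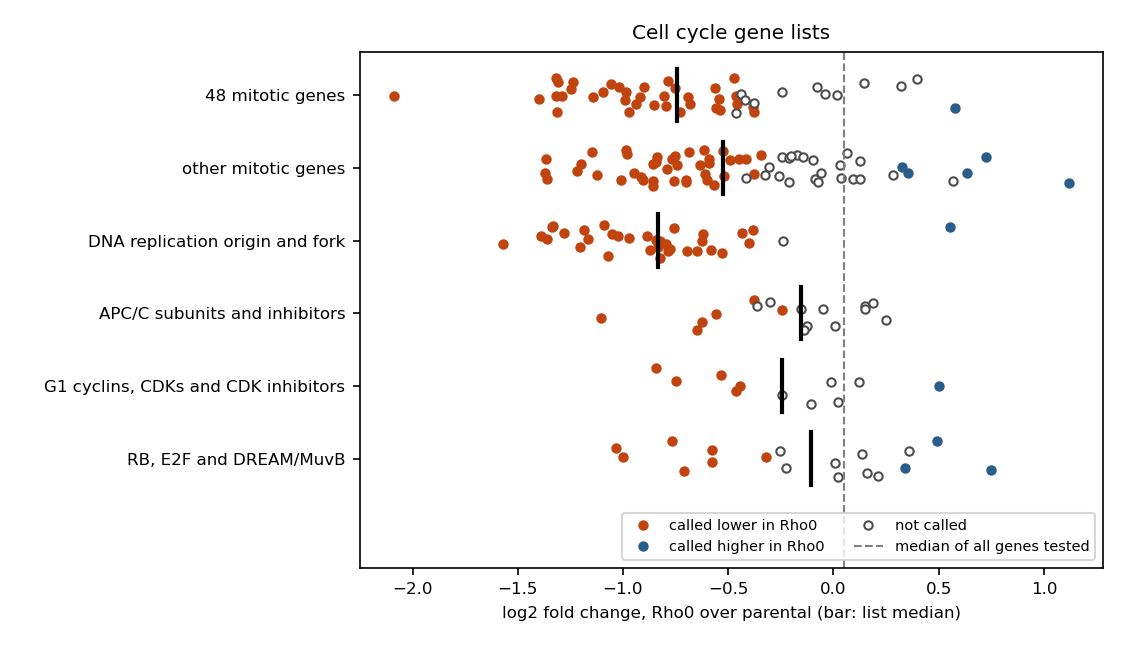
Log2 fold change, Rho0 over parental (horizontal axis), of each tested gene in the 48 mitotic genes and 5 other cell cycle lists (rows, with points spread vertically for sight). Filled points are called lower (orange) or higher (blue) at an adjusted p under 0.05, thick bars are list medians and the dashed line is the median of all genes tested, 0.05. The medians of the mitotic (-0.74), other mitotic (-0.53) and DNA replication genes (-0.84) lie left of those of the other 3 lists (-0.24 to -0.11).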

How the data were processed

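RNA from 4 Rho0 and 4 parental Ea.hy926 cultures was sequenced after poly-A enrichment with a strand-specific kit, per the labels' protocols. Tools named without a version, per the submitters' processing notes, are kallisto, edgeR and limma, and the build is GRCh38. The authors deposited estimated counts for 38010 genes, and a log2 table of 12885 genes. Of 11402 genes compared, 97.8% had deposited values equal to log2 of a scaled count plus 1 in every library. The tolerance was 0.001, relative to the scaled count. The estimated counts were rounded and fitted with edgeR 4.0.16 in R 4.3.3 (TMM, filterByExpr with a minimum count of 10, quasi-likelihood F-test, Benjamini-Hochberg over 15184 genes). The biological coefficient of variation was 13.7%. Alternatives used DESeq2 1.42.0 and limma 3.58.1, on the counts and on the log2 table. No 2 libraries agreed within sampling noise (chi-square per degree of freedom of at least 4.21). Symbols matched 34284 identifiers through a gene-name table and GENCODE 29, whose coordinates are given. Length and GC content of the longest transcript were known for 93.7% of genes tested. Members, lists and motifs were chosen with earlier results of these data known. Values in every library are given for 14 preset genes and for the largest called change in each direction within each role group. From each other list, the text may name up to 2 genes with the largest called changes each way and a mean of at least 5 CPM, and a few preset regulators. Promoter windows came from RefSeq (GRCh38.p14).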

Additional observations from a re-analysis of the deposited data

Results flagged for a closer look

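Of 98 groups of 4 libraries examined, 11 held a library far from its 3 companions, and chance flags about 1 in 20. Parental replicate 3 was the distant library in 8 of the 11. It was high for AURKA (56.4 CPM, the others 52.3 to 52.6), CDC20 (141.8 CPM, the others 119 to 122), UBE2C (91.7 CPM, the others 78.5 to 79.0), FOXM1 (269 CPM, the others 208 to 213) and MYBL2 (274 CPM, the others 221 to 224). It was low for BUB1 (40.7 CPM, the others 45.5 to 46.4) and ANLN (42.6 CPM, the others 48.9 to 50.1). Its sum over the 48 genes was high as well (3877 CPM, the others 3602 to 3636).

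Rho0 replicate 4 was high for KIF23 (41.1 CPM, the other Rho0 libraries 26.2 to 28.6) and for the sum over the 48 genes (2385 CPM, the others 2118 to 2153). Rho0 replicate 2 was low for CCNB2 (19.4 CPM, the others 21.1 to 21.5). In all these cases except ANLN the lines did not overlap.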

How the results depend on the processing

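Over 19 alternatives, 24 of the 37 called members kept their call and direction. With scaling by library size alone CCNB1 turned to 0.011 and CDCA3 to 0.010, and 10 further members lost their call there and nowhere else. SMC4 lost its call in the 4 settings described above. Library size alone gave 8583 genes higher and 1540 lower, 4 members higher and a members' median of -0.35. The length and GC correction gave 0 members higher and a median of -0.84, or -0.85 with the replicate block as well. Leaving out 1 library at a time gave 36 to 40 members lower (22.1% to 28.5% of all genes), 0 to 2 higher and medians of -0.84 (without Rho0 replicate 4) to -0.71.

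Changes of sign were otherwise those of genes that were not called. NDC80 was at -0.023 with DESeq2 size factors, -0.0056 with totals without mitochondrially encoded genes, -0.020 with the replicate block, -0.12 with the length and GC correction, -0.14 with both, -0.025 with the DESeq2 Wald test, -0.0087 with limma-voom, -0.021 with limma-trend, and -0.22 (without Rho0 replicate 4) to 0.13 with 1 library left out, including -0.062 without parental replicate 3. CCND1 was at -0.011 with DESeq2 size factors, -0.012 with the DESeq2 Wald test, -0.047 with the correction, -0.046 with the replicate block added, and -0.0074 (without Rho0 replicate 2) to 0.052 with 1 library left out. CENPF was at -0.26 with the correction, -0.29 with the replicate block added and -0.27 (without Rho0 replicate 4) to 0.32 with 1 library left out. SMC2 was at -0.089, -0.11 and -0.037 to 0.47 in the same order, its lowest value again without Rho0 replicate 4. Scaled by library size alone, BUB3 was at 0.35, TTK at 0.15 and CENPE at 0.32. With 1 library left out, CENPE ran over -0.56 to 0.18 and SPC25 over -0.76 to 0.34. The causes were not tested.

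Replicate numbers did not pair the lines. Deviations of libraries with the same number correlated at -0.13, 0.04, 0 and 0.16, and 1 of 4 Rho0 libraries correlated best with its own number. With the replicate block 39 members were lower (25% of all genes) and 1 higher, with a median of -0.77, and ANLN, NUF2 and TOP2A were called. The 4 libraries and 1 cell line per condition limit all comparisons, and counting error is largest for genes of few CPM, such as SPC25.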
